A study of Mus musculus with 38 samples.

Results

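Calbindin and the neuronal calcium sensors are small cytosolic proteins that bind calcium through EF-hand loops. The genes described here are 9 of the 23420 genes counted in the libraries, found by their symbols: the buffers Calb1 (calbindin), Calb2 (calretinin) and Pvalb (parvalbumin), and the sensors Ncald (neurocalcin delta), Hpca (hippocalcin), Hpcal1, Hpcal4, Ncs1 and Vsnl1. All 9 symbols were found. Hpca, Hpcal1 and Ncald are close relatives in coding sequence. Only uniquely aligned reads were counted, so reads that match several of them equally were left out. The strand of the RNA was not kept, so it could not assign reads in exons that overlap those of other genes. In the annotation 7.38% of the exon bases of Ncald and 1.95% of those of Hpca also lie in exons of other genes. The list was put together with the differences between dVenus+ and dVenus- cells in view, chosen by the log2 fold change of that contrast among other values, so those differences, and the calls made on them by the fits across all genes, are given as a description and support nothing. The interactions of that contrast with training history are made of the same differences, so their values and p-values for members are a description too. The level in NS against HC mice within each cell type is given with its test.

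The cells came from male Arc::dVenus mice on a C57BL/6J background, 8 to 12 weeks old, whose Venus reporter, a destabilized form of the protein, is under the control of the Arc promoter. Cells with the reporter (dVenus+) were taken as recently activated granule cells of the dentate gyrus, and cells next to them without it (dVenus-) as their inactive neighbors. All animals of all groups carried the reporter, which follows the activity of the Arc promoter and no other gene. From each mouse 10 dVenus+ cells and 10 dVenus- cells were aspirated as nucleated patches in acute slices and pooled into 1 library each, so a value is a mean over 10 cells. There were 12 fear conditioned mice (FC, tone and foot shock pairings, cells taken 24 h later), 4 mice given the same protocol without shocks (NS, cells also taken 24 h later) and 3 mice left in the home cage (HC, no training), with 38 libraries in all. The FC mice came from 3 experiments (2, 4 and 6 animals), whereas the NS and HC animals belonged together to 1 further experiment, so a difference between FC and the other histories, in level or in the contrast of dVenus+ with dVenus- cells, cannot be told apart from a difference between experiments. A further label of some NS and HC libraries names another cell type or animal than their titles do, with the same history, and the titles were followed.

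A calcium buffer such as calbindin takes up calcium ions that enter a neuron and thereby shapes the size and the duration of the calcium signal. A calcium sensor changes its shape when calcium binds and then acts on other proteins. Most members of the sensor family carry a myristoyl group at the N terminus that calcium binding exposes, which moves the protein to membranes. Mature granule cells of the dentate gyrus are known for strong calbindin. Calretinin is known there from immature granule cells, mossy cells in mice and some interneurons, and parvalbumin from fast-spiking interneurons. Hippocalcin is an abundant sensor of hippocampal principal neurons.

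In the dVenus+ cells, Ncald was lower than in the dVenus- cells of the same animal in 19 of 19 mice, Hpca in 18 of 19 and Calb1 in 17 of 19. The log2 fold changes of Ncald were -2.58 (SE 0.42), -2.60 (SE 0.79) and -2.47 (SE 0.86) for FC, NS and HC. Those of Hpca were -1.93 (SE 0.44), -2.16 (SE 0.75) and -2.29 (SE 0.93). Calb1 stood at -3.14 (SE 0.58) in FC and -4.70 (SE 1.14) in NS mice but at -0.84 (SE 1.37) in HC mice, where it was lower in 1 of 3 animals. Hpcal4 lay on the other side in FC mice, higher in dVenus+ cells in 11 of 12 animals, with a log2 fold change of 1.02 (SE 0.46). Between training histories none of the 9 genes was called by edgeR. DESeq2 called Ncs1 for FC against HC mice, where it called 11.2% of all 14075 genes. It also called Pvalb for FC against NS mice, where it called 8.55%. FC mice share no experiment with the other histories, so these calls cannot be told apart from a difference between experiments.

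Between 1352288 and 18394761 reads were counted on genes per library, with a median of 8013005, and these totals limit the counting error only. Among the dVenus+ libraries, those of FC mice 03 and 05 had the fewest uniquely aligned reads. Arc, the gene whose promoter drives the reporter, lay between 477 and 1539 CPM (counts per 1000000 counts on genes, with normalized library sizes) in the FC dVenus+ libraries and between 0 and 172 CPM in the FC dVenus- libraries, with the highest dVenus- values in mice 06, 07 and 14. The cell types did not overlap in Arc in FC, NS or HC mice. Granule cell identity was checked with 11 marker genes such as Prox1 and Rfx3. Their summed level was 197 to 1328 CPM (median 609) in FC dVenus+ and 970 to 2767 CPM (median 1212) in FC dVenus- libraries, and it was lower in the dVenus+ cells in 12 of 12 FC, 4 of 4 NS and 3 of 3 HC mice. As a sum the markers were thus present in both cell types, but not each of them. Tdo2 was at 0 in all 4 NS dVenus+ and all 3 HC dVenus- libraries, and Plk5 in 6 of 12 FC dVenus+ libraries. In the FC fit 10 of 11 markers were below 0, and Trpc6 was above it (medians 106 CPM in dVenus+ and 51.0 CPM in dVenus- cells). The summed level of the markers moved in the same direction as Ncald and Hpca, and as Calb1 in FC and NS but not in HC mice. Their part in these differences was not tested.

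Calb1 encodes calbindin, the main buffer of mature granule cells, and is located on chromosome 4 (mm10, chr4:15881264-15906709, plus strand). In FC mice its normalized level was 191 CPM in the lowest, 276 CPM in the median and 771 CPM in the highest dVenus- library, and 0.894, 49.1 and 341 CPM in the dVenus+ libraries. All 12 FC mice had the lower value in the dVenus+ cells, and 11 of the 12 dVenus+ libraries lay below every dVenus- library, although the groups overlapped through mouse 11 with 341 CPM in dVenus+ and 408 CPM in dVenus- cells. Mouse 14 had the lowest dVenus+ value, with 3 reads counted on Calb1. The 4 NS mice 18, 19, 20 and 21 had 17.4, 127, 3.43 and 8.87 CPM in dVenus+ cells and 441, 332, 774 and 256 CPM in dVenus- cells. Here the groups did not overlap, a pattern that 2.85% of the 8187 genes tested in NS mice shared in this direction. In the HC mice 15, 16 and 17 the values were 35.4, 126 and 356 CPM in dVenus+ cells against 573, 69.5 and 289 CPM in dVenus- cells. Only mouse 15 had the lower value in dVenus+ cells, and the groups overlapped. Leaving out 1 HC mouse moved the fitted log2 fold change between -1.997 and 0.45.

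Calb2, which encodes calretinin (chr8:110142526-110168212, minus strand), was close to the limit of detection. It was at 0 counts in 11 and under 10 counts in 20 of 38 libraries, and it did not pass the count filter in FC mice. The FC dVenus- libraries ran from 0 to 20.1 CPM (median 0.0266) and the dVenus+ libraries from 0 to 21.5 CPM (median 4.51). The dVenus+ value was the higher one in 9 of 12 FC mice, the lower one in 2, and both were at 0 in the remaining mouse. The HC dVenus+ libraries held 65.8, 6.51 and 8.22 CPM in mice 15, 16 and 17, and the dVenus- libraries 0.667, 0.403 and 0.195 CPM, from 9, 2 and 2 reads. All 3 HC mice were thus higher in dVenus+ cells without overlap, as were 9.17% of the 7588 genes tested there, and the counts on the dVenus- side are too few for a fold change. In NS mice the values were 3.23, 26.5, 0.605 and 0 CPM in dVenus+ against 6.25, 19.1, 0 and 1.20 CPM in dVenus- cells, with no common direction.

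Pvalb, which encodes parvalbumin (chr15:78191112-78206400, minus strand), varied from library to library more than between cell types. In FC mice it ran from 0 to 253 CPM (median 4.19) in dVenus- and from 0 to 45.3 CPM (median 2.08) in dVenus+ libraries, lower in dVenus+ cells in 7 of 12 mice. The NS dVenus+ libraries held 77.2, 67.9, 19.6 and 122 CPM, and the NS dVenus- libraries 54.8 and 81.6 CPM in mice 18 and 19 and 0 in mice 20 and 21. In HC mice the values were 26.9, 49.8 and 1.59 CPM in dVenus+ and 0, 21.4 and 1.17 CPM in dVenus- cells. The groups overlapped in all 3 histories. Markers of interneurons, the cells best known for Pvalb, were summed over 8 counted genes including Gad1 and Gad2. In FC mice they lay between 16.8 and 406 CPM (median 49.2) in dVenus+ and between 31.0 and 2387 CPM (median 133) in dVenus- libraries. In NS mice the medians were 152 CPM in dVenus+ and 295 CPM in dVenus- libraries, with the sum lower in dVenus+ cells in 3 of 4 mice. In HC mice they were 218 and 124 CPM, with the sum lower in dVenus+ cells in 1 of 3 mice. Gad1 alone had FC medians of 29.4 and 105 CPM. Of the 12 FC dVenus- libraries, Vip was at 0 in 12, Slc32a1 and Reln in 11 each, Dlx1 in 10 and Sst in 8. In the FC fit Gad1 was at -2.13 (SE 0.79), but Gad2 at 0.47 (SE 1.03) and Lhx6 at 0.20 (SE 0.86). The part of the interneuron markers in the values of Pvalb was not tested.

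**Figure D1:**
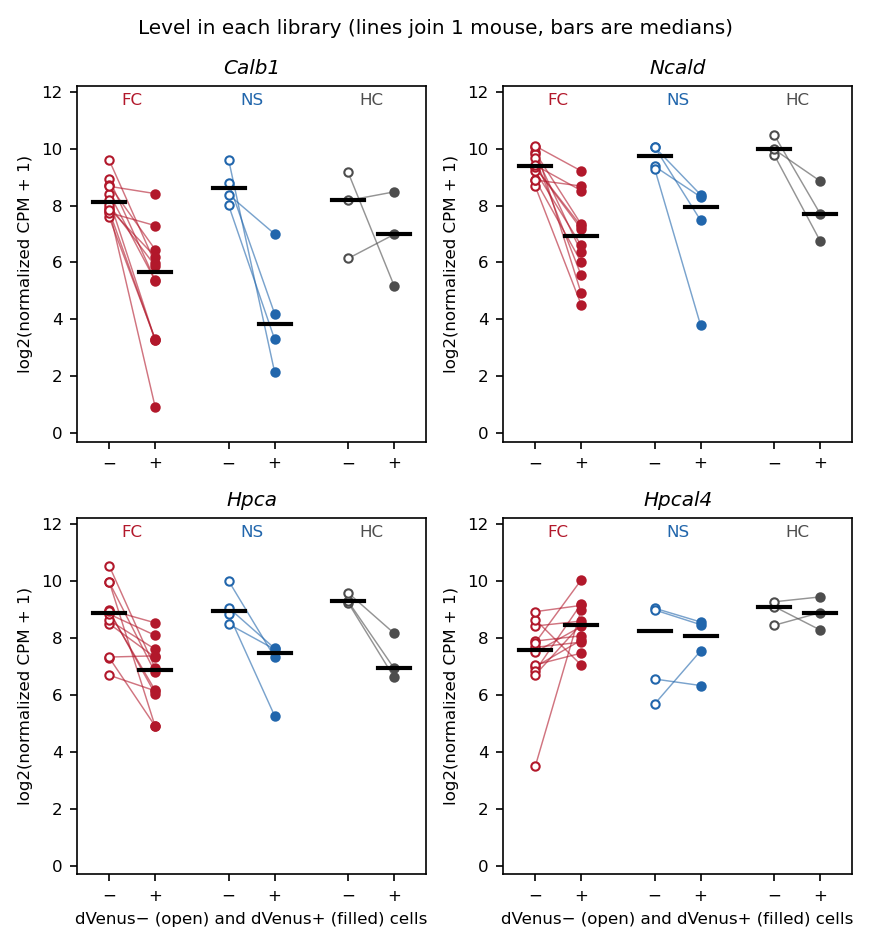
Level of Calb1, Ncald, Hpca and Hpcal4 in each library as log2 of normalized CPM plus 1 (vertical axis), for dVenus- cells (open circles) and dVenus+ cells (filled circles) of 12 FC, 4 NS and 3 HC mice. Lines join the libraries of a mouse and black bars are medians. The lines of Ncald fall in all 19 mice, those of Calb1 in 12 of 12 FC and 4 of 4 NS but 1 of 3 HC mice, and those of Hpcal4 rise in 11 of 12 FC mice.

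Ncald encodes neurocalcin delta, a myristoylated sensor described in studies of clathrin and membrane traffic. It lies on chr15:37366175-37792519 (minus strand), the longest gene of the 9 with 426 kb. In FC mice its level was 409, 667 and 1091 CPM in the lowest, median and highest dVenus- library and 21.9, 119.8 and 593 CPM in the dVenus+ libraries. Every FC mouse had the lower value in dVenus+ cells, and 10 of 12 dVenus+ libraries lay below every dVenus- library. The 2 that did not were those of mice 11 and 13, with 593 and 411 CPM. The NS dVenus+ libraries held 177, 332, 315 and 12.8 CPM and the dVenus- libraries 1062, 1059, 664 and 627 CPM. The HC dVenus+ libraries held 108, 209 and 464 CPM and the dVenus- libraries 881, 1433 and 1004 CPM. The cell types did not overlap in NS or in HC mice, which 2.85% of genes in NS and 5.92% of genes in HC mice shared in this direction.

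Hpca encodes hippocalcin, which is known from work on the slow afterhyperpolarization and on synaptic depression in hippocampal neurons. It lies on chr4:129111570-129125919 (minus strand). RefSeq (GRCm38.p6) gives 3 start sites for it, and the stretch outside annotated exons before the middle one, chr4:129121308-129121553, is shown because it carries a pair of adjoining Sp1-type GC boxes (GGGCGG, in capitals, found on either strand):

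Hpca: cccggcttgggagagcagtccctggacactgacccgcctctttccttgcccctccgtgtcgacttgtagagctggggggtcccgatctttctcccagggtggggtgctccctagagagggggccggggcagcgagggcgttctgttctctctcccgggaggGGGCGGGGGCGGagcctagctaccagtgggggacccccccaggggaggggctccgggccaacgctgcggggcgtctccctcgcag

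Of the 10 RefSeq start sites found for 6 of the genes (Hpca, Hpcal1, Hpcal4, Ncs1, Vsnl1 and Pvalb), 6 had GGGCGG within the 250 bases before the start, against 32.7% of all 32851 start sites. These 6 belonged to Hpca, Hpcal1, Hpcal4, Ncs1 and Vsnl1. Hpca had 3 of the 10 sites, and Vsnl1 and Pvalb 2 each. The 6 windows with GGGCGG had 58.0 to 75.6% G and C, against a median of 52.4% over all start sites. The part of base composition in these matches was not tested. The letters of the cAMP response element (TGACGTCA, either strand) were in none of the 10 windows and in 1.55% of all windows. Its shorter form TGACG was in none of the 10 and in 17.8% of all, and the TATA box letters TATAAA in none and in 12.4%. These are matches of letters and not measurements of binding, and the genes with GGGCGG include Hpca, with lower, and Hpcal4, with higher levels in dVenus+ cells of FC mice.

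In FC mice the level of Hpca was 102, 467 and 1479 CPM in the lowest, median and highest dVenus- library and 28.7, 115 and 368 CPM in the dVenus+ libraries. It was lower in dVenus+ cells in 11 of 12 mice. The exception was mouse 12, with 164 CPM in dVenus+ and 159 CPM in dVenus- cells. The NS dVenus+ libraries held 159, 193, 197 and 37.4 CPM and the dVenus- libraries 1022, 357, 531 and 453 CPM. The HC dVenus+ libraries held 96.8, 121 and 285 CPM and the dVenus- libraries 603, 622 and 765 CPM. Again neither NS nor HC groups overlapped, which 2.85% of genes in NS and 5.92% of genes in HC mice shared in this direction. The size of the difference varied between the FC experiments, with log2 fold changes of -1.78 (SE 0.74), -3.68 (SE 0.66) and -0.90 (SE 0.44) in the experiments of 2, 4 and 6 mice fitted alone. For Ncald the same fits gave -3.11 (SE 0.75), -3.45 (SE 0.70) and -1.83 (SE 0.53), and for Calb1 -3.70 (SE 0.85), -3.16 (SE 0.89) and -2.92 (SE 0.96). All 3 genes thus had the same direction in each experiment.

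Hpcal1 (chr12:17690750-17791944, plus strand) encodes a sensor closely related to hippocalcin. Its RefSeq start has 3 GC boxes in the 250 bases before it. The stretch chr12:17690559-17690749, which lies before the annotated gene, holds 1 of them (in capitals) and is shown beside that of Hpca as its nearest relative in the list:

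Hpcal1: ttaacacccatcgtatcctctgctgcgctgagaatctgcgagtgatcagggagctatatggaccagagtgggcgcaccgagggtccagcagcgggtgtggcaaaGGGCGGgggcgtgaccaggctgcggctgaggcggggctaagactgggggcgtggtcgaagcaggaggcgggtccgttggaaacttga

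The counts of Hpcal1 were all or none in several libraries. In FC mice it ran from 0.305 to 167 CPM (median 42.4) in dVenus- and from 0 to 217 CPM (median 12.1) in dVenus+ libraries, with lower dVenus+ values in 8 of 12 mice. The NS dVenus+ libraries held 0, 10.1, 107 and 0 CPM and the dVenus- libraries 72.1, 44.2, 247 and 61.0 CPM, lower in 4 of 4 mice, a pattern of 7.66% of genes there. The HC dVenus+ libraries held 36.2, 36.8 and 162 CPM and the dVenus- libraries 162, 32.0 and 0.0973 CPM, the last from 1 read. The groups overlapped in all 3 histories.

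Hpcal4 (chr4:123183504-123194699, plus strand) encodes hippocalcin-like 4, a further relative of the visinin-like proteins. In FC mice its level was 10.2, 191 and 483 CPM in the lowest, median and highest dVenus- library and 131, 346 and 1047 CPM in the dVenus+ libraries. It was higher in dVenus+ cells in 11 of 12 mice, as were 1.75% of genes in at least 11 mice, and lower in mouse 04 with 131 against 399 CPM. The groups overlapped, and the fitted difference did not pass the threshold. The mice with the widest differences in CPM, 09 and 14, had 508 and 1047 CPM in dVenus+ against 10.2 and 226 CPM in dVenus- cells. In the experiments of 2, 4 and 6 mice alone the log2 fold change was 0.59 (SE 0.65), -0.03 (SE 0.76) and 1.92 (SE 0.66), so the higher level was largest in the experiment of 6 mice, and in the experiment of 4 the fitted value was near 0. The NS dVenus+ libraries held 376, 79.2, 185 and 352 CPM and the dVenus- libraries 526, 93.0, 50.1 and 504 CPM. In HC mice the values were 309.7, 693 and 472 CPM against 548, 615 and 347 CPM. Neither of these histories showed a common direction, with fitted log2 fold changes of 0.11 (SE 0.78) and -0.22 (SE 0.86).

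Ncs1 (chr2:31245708-31295989, plus strand) encodes neuronal calcium sensor 1, known from work on transmitter release and on phosphatidylinositol 4-kinase. In FC mice it ran from 11.3 to 347 CPM (median 131) in dVenus- and from 5.11 to 408 CPM (median 174) in dVenus+ libraries, with 6 mice lower and 6 higher in dVenus+ cells. In NS mice the dVenus+ libraries held 195, 70.5, 54.3 and 320.4 CPM and the dVenus- libraries 259, 23.5, 95.1 and 379.7 CPM. The HC mice 15, 16 and 17 had 5.76, 237 and 0.398 CPM in dVenus+ and 319.6, 278 and 115 CPM in dVenus- cells. The dVenus+ value was lower in all 3, as for 12.3% of genes there, from 21, 509 and 3 reads, and the groups overlapped through mouse 16. The fitted log2 fold change was -5.32 (SE 2.19) in HC mice against 0.15 (SE 0.62) in FC and -0.01 (SE 0.90) in NS mice.

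Vsnl1 (chr12:11325257-11436578, minus strand) encodes visinin-like 1, a sensor found widely in neurons. In FC mice it ran from 15.7 to 66.0 CPM (median 29.1) in dVenus- and from 0.388 to 93.3 CPM (median 26.1) in dVenus+ libraries, lower in dVenus+ cells in 9 of 12 mice. The medians of the FC groups were close, the log2 fold change was -0.73 (SE 0.82), and the dVenus+ libraries of mice 04 and 06 held 4 counts each. In NS mice the dVenus+ libraries held 101, 60.7, 24.2 and 42.0 CPM and the dVenus- libraries 62.9, 242, 77.2 and 51.9 CPM. In HC mice the values were 116, 67.5 and 85.1 CPM against 73.4, 141 and 131 CPM. The groups overlapped in every history.

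**Figure D2:**
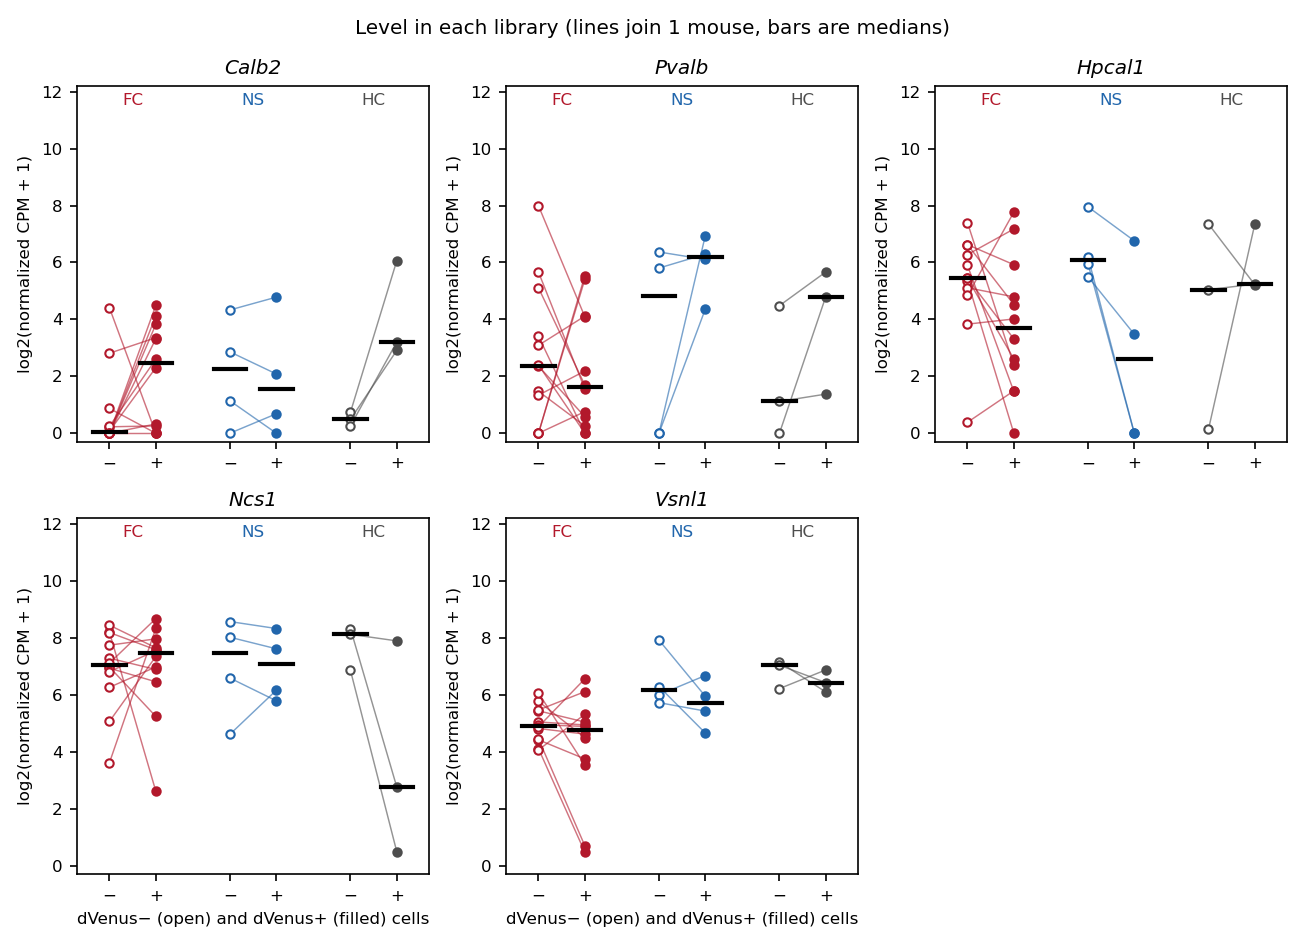
Level of Calb2, Pvalb, Hpcal1, Ncs1 and Vsnl1 in each library as log2 of normalized CPM plus 1 (vertical axis), for dVenus- cells (open circles) and dVenus+ cells (filled circles) of FC, NS and HC mice. Lines join the libraries of a mouse and black bars are medians. Lines cross in most panels, the HC dVenus+ libraries of Ncs1 spread from 0.398 to 237 CPM, and Calb2, Pvalb and Hpcal1 have libraries at 0.

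The fits across all genes give the size of these differences against the background. In FC mice 9709 genes were tested with edgeR's quasi-likelihood test and 137 of them (1.41%) had a Benjamini-Hochberg adjusted p under 0.05 and an absolute log2 fold change over 1, of which 81 (0.834%) were lower in dVenus+ cells. Of the 9 genes 8 passed the count filter, and 3 of these 8 were called, Calb1, Ncald and Hpca, all lower. With the newer quasi-likelihood method of edgeR 424 genes were called (4.37%) and the same 3 members, and DESeq2 called 1651 (17.0%) and again these 3. Since the list was chosen with this contrast in view, nothing is read from that share. Lower values in 12 of 12 FC mice, as for Calb1 and Ncald, were found in 1.09% of genes, and in at least 11 mice, as for Hpca, in 4.11%. No member had every dVenus+ library below every dVenus- library in FC mice, as 0.0309% of genes did. The call of Hpca was lost when any of mice 01, 03, 04, 06, 07 or 14 was left out, and those of Calb1 and Ncald held in each of these 12 fits. Without mice 03 and 05 together, whose dVenus+ libraries had the fewest uniquely aligned reads, only Ncald was called.

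In NS mice none of the 8187 genes tested was called (0.0%) by edgeR, with 384 at an unadjusted p under 0.05, 4 (0.0489%) called by the newer method and 671 (8.2%) by DESeq2. None of the 9 members was called by edgeR, 3 were at an unadjusted p under 0.05 (Calb1, Ncald and Hpca), and DESeq2 called 3 (Calb1, Hpcal1 and Pvalb). In HC mice 2 of 7588 genes were called (0.0264%), both higher, and none of the 9 members, of which 3 were at an unadjusted p under 0.05 (Ncald, Hpca and Ncs1). DESeq2 called 625 genes (8.24%) there, Ncs1 among the members, and the newer method 0 (0.0%). The members' median log2 fold change was -1.64, -0.84 and -0.50 for FC, NS and HC, beside -0.21, 0.20 and 0.11 over all genes tested. The position of single members among all genes varied with history. In FC mice 4.56% of genes had a lower log2 fold change than Calb1, 7.42% a lower one than Ncald and 12.9% a lower one than Hpca, while 86.8% were lower than Hpcal4. In NS mice 3.77% lay below Calb1, 11.6% below Ncald and 14.3% below Hpca. In HC mice 35.6% of genes lay below Calb1, 16.9% below Ncald, 18.5% below Hpca and 4.45% below Ncs1.

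**Figure D3:**
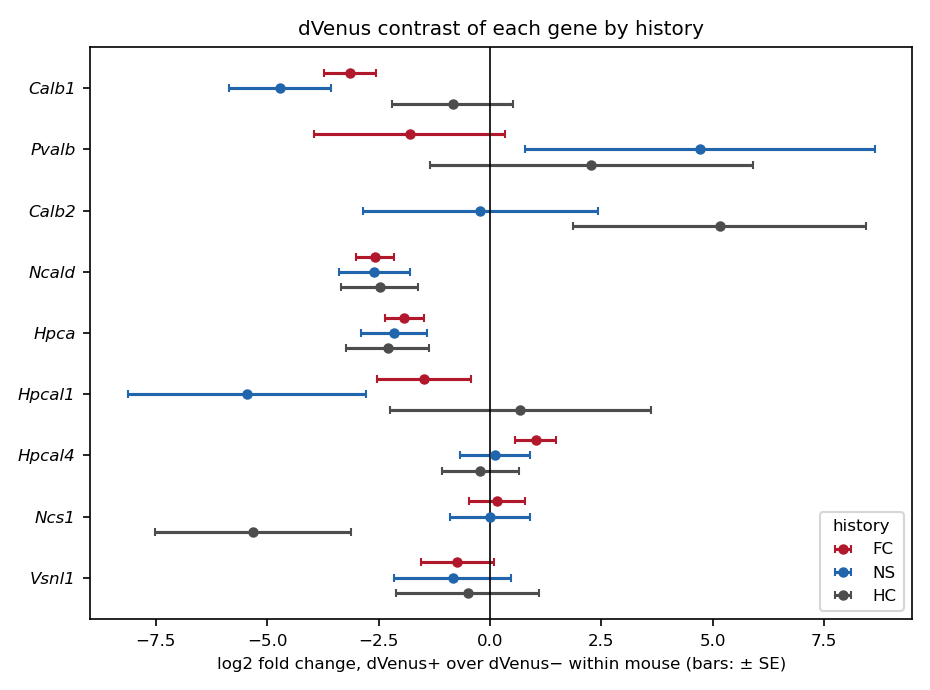
Fitted log2 fold change of dVenus+ over dVenus- cells within mouse (horizontal axis) for each gene in FC (red), NS (blue) and HC mice (grey), with bars of 1 standard error on either side. Ncald and Hpca lie between -2.60 and -1.93 in all 3 histories, Calb1 lies at -4.70 in NS and at -0.84 in HC mice, and Calb2 was not tested in FC mice.

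**Figure D4:**
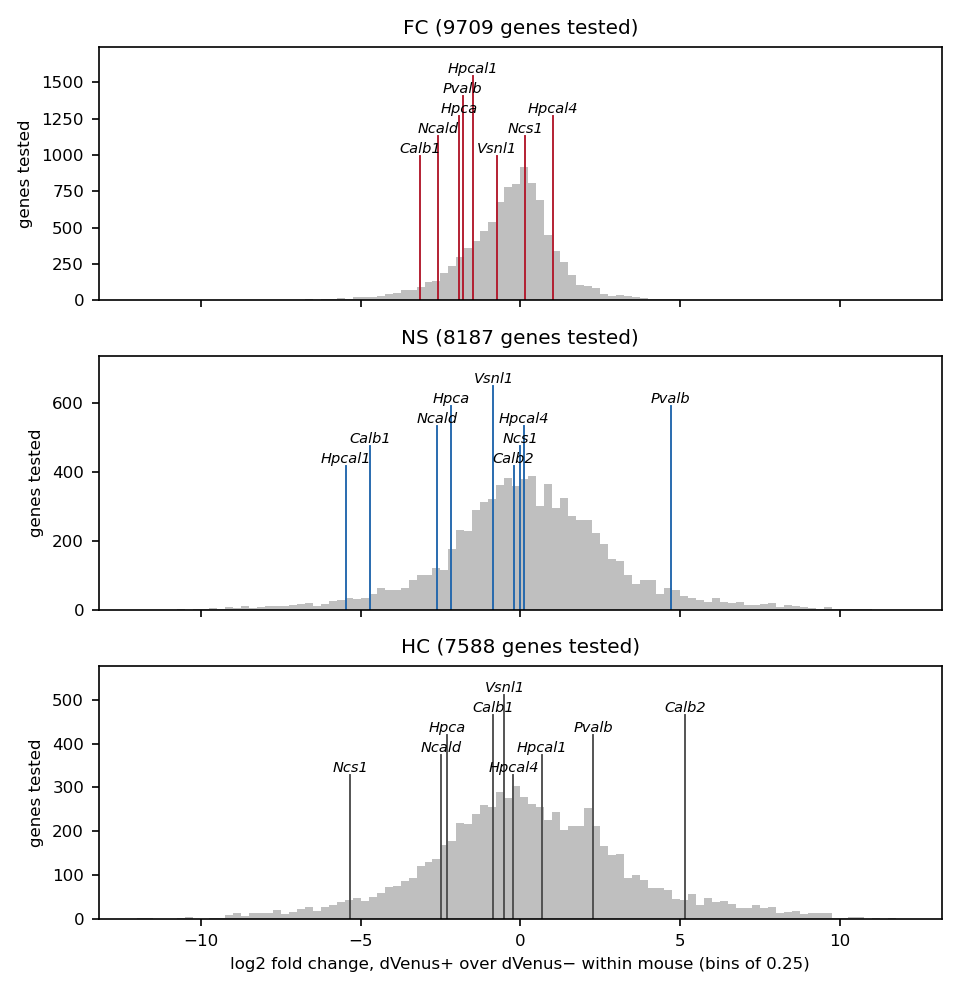
Distribution of the log2 fold change of dVenus+ over dVenus- cells (horizontal axis, bins of 0.25) over all genes tested in FC, NS and HC mice (vertical axis, number of genes, with values past 12 set to 12). Vertical lines mark the members. In FC mice 4.56% of genes lie below Calb1, 7.42% below Ncald and 12.9% below Hpca, and in HC mice 35.6% lie below Calb1.

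The variation of the difference between dVenus+ and dVenus- cells with training was fitted as the interaction of cell type and history. The fit held all 38 libraries and 14075 genes. The list was chosen with these differences in view, so the interactions of members are a description and support nothing. As FC mice share no experiment with NS or HC mice, this interaction cannot be told apart from one with experiment, and the contrasts of Hpca and Hpcal4 varied between the FC experiments. No gene was called (0.0%) in the comparison of FC with NS or of FC with HC mice by edgeR, with 763 and 892 genes at an unadjusted p under 0.05, and with 1203 (8.55%) and 1573 (11.2%) called by DESeq2. For Calb1 the log2 fold change in FC was higher than in NS mice by 1.52 (SE 1.33, edgeR adjusted p = 0.892), and the difference between FC and HC mice was -2.49 (SE 1.55, adjusted p = 0.778). The interaction of Ncald was -0.03 (SE 0.91, adjusted p = 1) against NS and -0.28 (SE 0.94, adjusted p = 1) against HC mice. That of Hpca was 0.19 (SE 0.84, adjusted p = 1) and 0.19 (SE 0.90, adjusted p = 1). The fitted interactions of both genes were thus smaller than 1 standard error.

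For Hpcal4 the interaction was 0.87 (SE 0.87, adjusted p = 0.903) against NS and 1.06 (SE 0.94, adjusted p = 0.817) against HC mice in edgeR's fit. For Ncs1 it was 0.12 (SE 1.26, adjusted p = 1) against NS and 5.27 (SE 1.97, adjusted p = 0.770) against HC mice. The latter was the only one of the 18 interactions of members at an unadjusted p under 0.05. DESeq2's Wald test called it at 5.54 (SE 1.22, adjusted p = 0.000195), and also called Pvalb for FC against NS mice at -7.17 (SE 2.33, adjusted p = 0.0282). edgeR gave -6.66 (SE 5.03, adjusted p = 0.885) for that gene, which was at 0 in both dVenus- libraries of NS mice 20 and 21. The remaining members, Calb2, Hpcal1 and Vsnl1, had adjusted p between 0.885 and 1 in edgeR.

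The level of the members in NS and HC mice, which share an experiment, was compared within each cell type. No gene was called (0.0%) among 8547 in dVenus- and 8706 in dVenus+ cells by edgeR. At an unadjusted p under 0.05 there were 280 and 300 genes, none of them a member. DESeq2 called 144 (1.68%) and 110 (1.26%) genes, with no member among them, although it gave no p for Calb2 and Hpcal1 in dVenus+ cells. Calb1 was higher in NS than in HC mice by 0.52 (SE 0.75) on the log2 scale in dVenus- cells, and in dVenus+ cells the difference was -2.26 (SE 1.31). All members had an edgeR adjusted p of 1.00 in both cell types. The sign of the Calb1 difference in dVenus- cells changed without NS mouse 20, to -0.08.

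Levels of different genes were compared per kilobase of annotated exon. In FC dVenus- cells the order by median was Hpca (159.8 CPM per kb), Ncald (77.8), Calb1 (56.9), Hpcal4 (35.7), Ncs1 (28.2), Hpcal1 (25.0), Vsnl1 (14.9), Pvalb (4.03) and Calb2 (0.0153). Hpca was above Ncald in 10 of 12 libraries, Ncald above Calb1 in 11 and Calb1 above Hpcal4 in 10, while Hpcal4 against Ncs1 (7 of 12) and Ncs1 against Hpcal1 (6 of 12) did not separate. Hpca and Ncald were also first and second in NS and HC dVenus- cells. Without division by length, Ncald led and Hpca was second, since the exons of Ncald span 8.58 kb and those of Hpca 2.92 kb. In FC dVenus+ cells Hpcal4 led with 64.9 CPM per kb, above Hpca (39.4) in 9 of 12 libraries, followed by Ncs1 (37.4), Ncald (14.0), Vsnl1 (13.3), Calb1 (10.1) and Hpcal1 (7.11), with Calb2 (2.58) and Pvalb (2.00) last. Hpca against Ncs1 (5 of 12) and the neighbors from Ncald to Hpcal1 did not separate. In HC dVenus+ cells Hpcal4 also had the highest median (88.4 CPM per kb). In NS dVenus+ cells Pvalb had the highest, 69.7 CPM per kb, from 4 libraries between 18.8 and 117, which overlapped with Hpca (60.2) and Hpcal4 (50.3). Without division by length Hpcal4 led there and Pvalb was at rank 5.

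**Figure D5:**
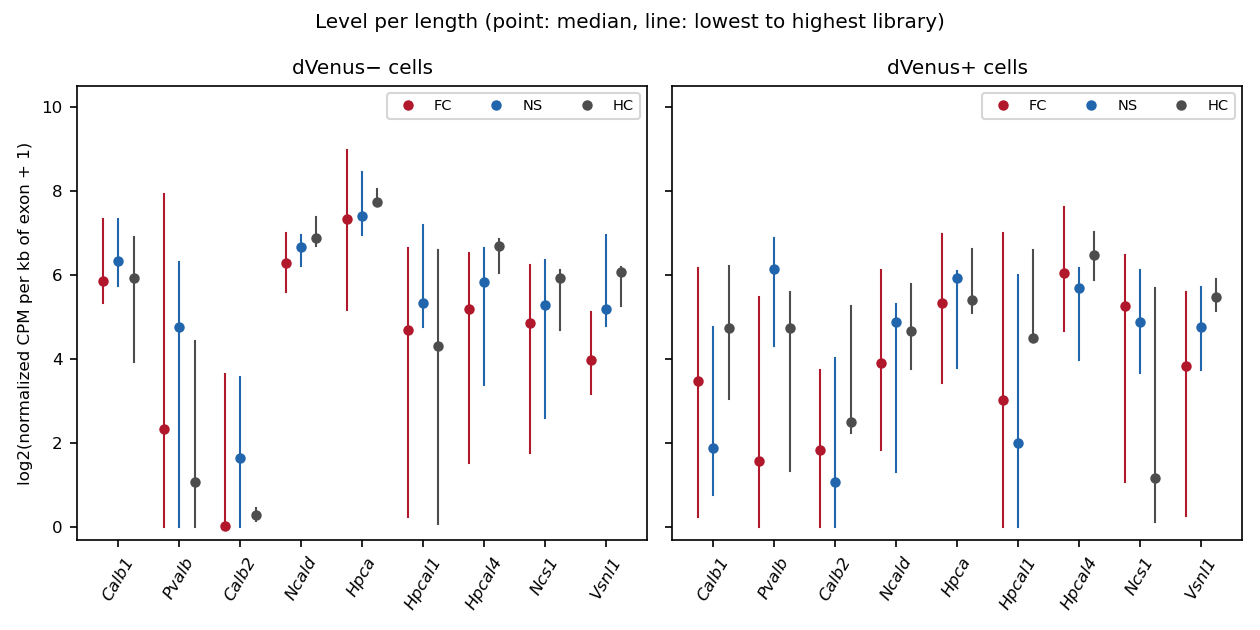
Level per length as log2 of normalized CPM per kb of annotated exon plus 1 (vertical axis) for each gene in dVenus- cells (left) and dVenus+ cells (right) of FC (red), NS (blue) and HC mice (grey). Points are medians and lines run from the lowest to the highest library. Hpca and Ncald have the highest medians in dVenus- cells, and Hpcal4 the highest in dVenus+ cells of FC and HC mice.

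The genes did not move together in single animals. Leaving out Calb2 and Pvalb, which were at 0 in many libraries, all 7 remaining genes were lower in dVenus+ cells in 1 of 19 mice, NS mouse 21. The median of the 7 log2 differences within a mouse was below 0 in 10 of 12 FC mice. The exceptions were mouse 12, at 0.04, and mouse 14, at 1.57, where Calb1, Ncald and Hpca were lower and the other 4 genes higher. Over the 38 libraries, which differ in depth, cell type and experiment, log2 CPM of Ncald and Hpca had a Pearson correlation of 0.83. Calb1 had 0.69 with Hpca and 0.66 with Ncald, and -0.31 with Hpcal4. The median over all 28 pairs of members with enough counts was 0.11.

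Likeness was measured over 8885 genes that reached 10 counts in 19 or more of the 38 libraries. Among them, the gene most like both Ncald (0.845) and Hpca (0.847) in Pearson correlation was Caly, followed for Ncald by Hpca (0.830) and Rtn1 (0.798) and for Hpca by Ncald (0.830) and Fam163b (0.826). For Calb1 they were Rab3a (0.824), which encodes a small GTPase of synaptic vesicles, Trappc2l (0.773) and Acot13 (0.751). For Hpcal4 the closest were Rheb (0.649), Eif4a3 (0.612) and Srsf3 (0.572), for Ncs1 Ppme1 (0.674), Tsnax (0.662) and Set (0.655), and for Vsnl1 Atp5g3 (0.730), Actb (0.720) and Purb (0.705). Hpcal1 was most like Bhlhe22 (0.597), Pnmal2 (0.587) and Pik3r1 (0.572), and Pvalb like Alcam (0.737), Cadm3 (0.633) and Pcp4l1 (0.596). Calb2 did not reach this number of counts. The points share libraries, cell types and depth, so these correlations are a description.

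Of 64 further genes of calcium binding, 63 were counted. They comprise the potassium channel interacting proteins (KChIPs), the visual sensors, calmodulins and their relatives, other EF-hand buffers, S100 proteins, EF-hand adaptors, EF-hand proteins of the secretory pathway, calmodulin-binding IQ-motif proteins, the enzymes of N-myristoylation and described partners of the sensors. Of these, 42 were tested for FC, 43 for NS and 42 for HC, and none was called by edgeR. At an unadjusted p under 0.05 there were 8, 3 and 4. DESeq2 called 7, 2 and 4 for FC, NS and HC, where it called 17.0%, 8.2% and 8.24% of all genes. The newer method called 2 in FC mice, Kcnip2 (lower) and Pdcd6 (higher), where it called 4.37% of all genes. No result is read from these counts. Their median log2 fold change was -0.14, -0.13 and -0.09 for FC, NS and HC, beside -0.21, 0.20 and 0.11 over all genes. The list with the most negative median in FC mice after the members was the KChIPs, at -1.63 over 3 tested genes, with Kcnip2 at -2.70 (SE 0.89) and Kcnip4 at -1.63 (SE 1.02) but Kcnip3 at 1.32 (SE 0.54). In NS mice the median of the KChIPs was 0.22 and in HC mice -1.10. In FC mice the calmodulins and relatives stood at -0.93 over 5.

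Abundant among these genes were Calm2, which encodes calmodulin, Pcp4, an IQ-motif protein that binds calmodulin, and Ppp3r1, the regulatory EF-hand subunit of calcineurin. Calm2 had medians of 1153 CPM in dVenus+ and 2184 CPM in dVenus- cells of FC mice, with a log2 fold change of -0.76 (SE 0.26) and lower values in 9 of 12 FC, 4 of 4 NS and 3 of 3 HC mice. Pcp4 stood at -0.71 (SE 0.32) and Ppp3r1 at -0.41 (SE 0.37) in FC mice. In FC mice these differences were all smaller than those of Calb1, Ncald and Hpca, whereas Ppp3r1 in HC mice, at -2.36 (SE 0.97), was as low as Hpca there.

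Other measures moved with cell type too. The summed level of 5 nuclear-retained RNAs, among them Malat1, was higher in dVenus+ cells in 19 of 19 mice. In FC mice it was 19355 to 78303 CPM (median 34414) in dVenus+ and 4313 to 43886 CPM (median 15906) in dVenus- libraries. Most of this sum was Malat1, with FC medians of 30828 and 14699 CPM. In the FC fit Meg3 (1.16, SE 0.45) and Snhg11 (1.59, SE 0.49) had the same direction. Miat had the opposite one (-2.41, SE 0.66, medians 47.5 and 283 CPM), and Neat1 had FC medians of 1.31 and 0.0414 CPM. Markers of microglia (9 genes, all with counts in FC mice) were higher in dVenus+ cells in 10 of 12 FC, 4 of 4 NS and 2 of 3 HC mice, with FC medians of 238 and 58.0 CPM. Immature granule cell markers (6 genes, Igfbpl1 at 0 in FC dVenus+ cells) were lower as a sum in dVenus+ cells in 11 of 12 FC, 3 of 4 NS and 3 of 3 HC mice, with FC medians of 78.1 and 214 CPM. Of those tested singly, 3 of 3 were below 0 in FC mice. In NS and HC mice only 1 of 4 was, Neurod1, and the median log2 fold changes were 0.52 and 1.01. Of 5 markers of mossy cells, Calcr and Drd2 were at 0 in every FC library, and the sum stayed at or below 38.7 CPM. This sum was lower in dVenus+ cells in 4 of 12 FC mice. It was higher there in 4 of 4 NS mice (medians 22.0 and 4.13 CPM) and 3 of 3 HC mice (medians 16.3 and 3.02 CPM). These values rest mainly on Csf2rb2, the only 1 of the 5 markers with enough counts to be tested. Csf2rb2 alone had medians of 15.8 and 1.83 CPM in NS and 16.3 and 3.02 CPM in HC mice. The other markers were at 0 in every HC dVenus+ library. Astrocyte markers (7 genes) were lower in dVenus+ cells in 9 of 12 FC mice, with medians of 259 and 502 CPM, and in 2 of 4 NS mice, but higher in 3 of 3 HC mice, with medians of 1701 and 594 CPM. Oligodendrocyte markers (6 genes) were lower as a sum in 8 of 12 FC, 2 of 4 NS and 2 of 3 HC mice. Of the 3 tested singly in FC mice, 0 were below 0. The part of the nuclear RNAs and of these cell type markers in the differences of the members was not tested. In pooled cells, fewer cells with a transcript and less transcript per cell cannot be told apart.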

How the data were processed

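RNA of 10 pooled cells per library was amplified by Smart-seq2 and made into libraries with Nextera XT. The authors aligned the reads to mm10 with TopHat2 2.0.13 and deposited unnormalized counts of uniquely aligned reads per gene made with HTSeq 0.6.0 (versions from the submitters' processing notes). Each file held 23420 genes and 5 entries naming no gene, which were left out of library sizes; reads outside genes were 16.4 to 59.7% of unique alignments. The table of the whole series was not used.

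Groups came from the sample titles and characteristics. The description labels of some NS and HC libraries disagree with these on cell type or animal, and were not used. Genes that reached 10 counts in 12 (FC), 4 (NS) or 3 (HC) libraries or more were fitted with edgeR 4.0.16 (R 4.3.3, TMM normalization, quasi-likelihood F-test with package defaults) with the mouse as a block, because both libraries of a pair came from 1 animal. The correlation of paired deviations had medians of 0.04, -0.01 and 0.02 in FC, NS and HC. The interaction fit used all 38 libraries, with the minimum count in at least 3. Genes were called at a Benjamini-Hochberg adjusted p under 0.05, for the cell type contrast with an absolute log2 fold change over 1. DESeq2 1.42.0 was an alternative. The model fit was tested on simulated data. CPM are counts on genes per 1000000, scaled to TMM-normalized library sizes, and standard errors were derived from the quasi-likelihood F statistic. The members and all gene lists were chosen with earlier results of these data known. All members are described, and of the other calcium-binding genes those with the highest mean CPM are named. A gene that this rule names is not reported here. Kcnip2, Kcnip3, Kcnip4 and Pdcd6 were named after their values were seen.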

Additional observations from a re-analysis of the deposited data

Results flagged for a closer look

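In 5 of 18 gene and cell type groups of the 4 NS mice, 1 library lay far from the other 3 by Dixon's criterion, applied to CPM without a log scale. Chance meets this criterion in about 1 of 20 groups only where values are normally distributed. CPM are skewed upward, and each of the 5 libraries was the highest of its group. That rate can therefore not be set against the 5 of 18, and no excess is read from them. Calb1 in dVenus+ cells was 127 CPM in mouse 19, with a gap of 0.887 of the group's range. Calb2 in dVenus+ cells was 26.5 CPM in the same mouse (0.878 of the range), and Vsnl1 in dVenus- cells was 242 CPM there (0.866). Hpcal1 was highest in mouse 20 in both cell types, with 107 CPM in dVenus+ cells (0.906) and 247 CPM in dVenus- cells (0.863). FC groups of 12 and HC groups of 3 libraries were not examined in this way.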

How the results depend on the processing

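In FC mice Calb1, Ncald and Hpca were called by edgeR, and leaving out 1 mouse left 2 to 3 of them. Without mice 03 and 05 together 1 was left, Ncald, and in each of the experiments of 2, 4 and 6 mice alone 0. The 137 genes called over the whole table became 1651 with DESeq2, 424 with the newer quasi-likelihood method (chosen after seeing the data), 49 without mice 03 and 05, 85 without mice 04 and 07, 45 without mice 06, 07 and 14, and 10, 3 and 0 in the experiments of 2, 4 and 6 mice, with 56 to 118 when 1 mouse was left out. In NS mice the members called went from 0 to 1 without a count filter (Calb1), 3 with DESeq2 and 0 to 1 without 1 mouse (Calb1, without mouse 19). All genes called in NS mice went from 0 to 1 with DESeq2 size factors, 13 without a filter, 5 with the minimum count in 3 libraries, 671 with DESeq2, 4 with the newer method and 0 to 12 without 1 mouse. In HC mice the members went from 0 to 1 with DESeq2 (Ncs1), and all genes from 2 to 0 with size factors, 5 without a filter, 625 with DESeq2, 0 with the newer method and 2 to 3 without 1 mouse. Fitted with no replicate block, that is without the pairing by mouse, 0 genes were called in HC mice, and the same 3 members in FC mice (Calb1 at -2.20, Ncald at -2.001 and Hpca at -1.97). Of the other calcium-binding genes, DESeq2 called 7, 2 and 4 in FC, NS and HC mice, beside 17.0%, 8.2% and 8.24% of all genes. The newer method called 2 of them in FC mice, beside 4.37% of all genes. In NS mice 1 of them was called without a filter and 0 to 1 without 1 mouse. DESeq2 called 1 member and 1203 genes for FC against NS, 1 member and 1573 genes for FC against HC, and 144 and 110 genes for the NS against HC level in dVenus- and dVenus+ cells. Ordered without division by length, Hpca was at rank 2 in FC dVenus- cells.

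Of 135 interaction values of members under an alternative 20 changed sign, and of 204 level values 11 did, none of which passed a threshold. The cause was not tested. For FC against NS, Ncald was 0.18 with size factors, 0.18 with DESeq2 and 0.017 with no replicate block, and without 1 NS mouse it ran from -0.83 to 0.57, Hpca from -0.29 to 0.62, Ncs1 from -0.17 to 0.61 and Vsnl1 from -0.34 to 0.57. For FC against HC, Ncald was 0.080 with size factors, 0.081 with DESeq2 and 0.075 with no replicate block, Hpca -0.014 and Vsnl1 0.22 with no replicate block, and Calb2 0.38 with DESeq2. Without 1 HC mouse Ncald ran from -0.66 to 0.30, Hpca from -0.060 to 0.55 and Vsnl1 from -0.78 to 0.078. For the NS against HC level with both cell types in 1 fit, Calb1 was -0.99, Hpcal1 -0.44 and Ncs1 0.27. Without 1 mouse the level difference in dVenus- cells ran from -0.084 to 1.18 for Calb1, -0.32 to 2.71 for Hpcal1 and -0.87 to 0.14 for Vsnl1, and in dVenus+ cells from -0.76 to 0.44 for Ncald and -0.54 to 0.49 for Hpca. Calb2, Pvalb and Hpcal1 were limited by depth, with 20, 10 and 5 of 38 libraries under 10 counts.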
